A study of Homo sapiens with 6 samples.

Results

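Genes that build sterols and fatty acids were described in U87 cells, an established human glioblastoma line, with and without a dominant negative form of IRE1alpha. The gene list held 41 names covering cholesterol synthesis, the SREBP regulators, the making and activation of fatty acids, and a few genes of glycerolipid assembly and cholesterol efflux. A probe set is a group of the array's probes summarised to 1 signal, and it can match more than 1 transcript. Where several probe sets with a single gene symbol covered a gene, the one whose log2 signals averaged highest over the 6 arrays was followed. On that rule 35 of the 41 names were found among 11963 genes. The other 6 (FDFT1, CYP51A1, FADS1, ELOVL1, ACSL3 and GPAM) were not analysed here. Of the 35, 31 passed the filter on dim signals and were tested among 7178 genes.

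Both groups were U87 cells grown for 16 h in DMEM with 10% serum and glutamine, with no drug named in the labels. The dominant negative group (3 arrays) carried a transgene for a dominant negative IRE1alpha, labelled as the clone IRE1.NCK DN. The control group (3 arrays) carried the empty plasmid, and its labels speak of clones in the plural. The promoter of the transgene is not given in the sources used here. A difference between clones and an action of the transgene cannot be told apart with these samples. No label states that replicates came from separate cultures. The p-values therefore reflect only how far these 6 samples differ among themselves, which may be technical variation. In bulk RNA, fewer cells making a transcript and less of it per cell cannot be told apart.

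Signals are in the deposited scaled units, and a log2 change is the dominant negative mean minus the control mean of log2(signal + 1.75). The filter level of the test was a signal of 13.0. Dominant negative array 3 had an ACTB 3′ to 5′ signal ratio, a measure of RNA integrity, of 1.64, against 1.09 to 1.21 on the other 5 arrays; the part of RNA quality in the results was not tested. Of 7 glial and mesenchymal markers, VIM and CD44 gave the bright signals. GFAP and S100B stayed under 3 units on all arrays, and SOX2 under the filter level. NES read 9.52, 9.66 and 44.9 units in controls, against 40.8, 27.8 and 34.7 in dominant negative cells (limma adjusted p = 0.16). OLIG2 read 15.1, 24.9 and 9.20 units in controls, against 2.34, 3.45 and 4.46 in dominant negative cells, and did not pass the filter. On some array, 1 of 4 leukocyte and 1 of 3 endothelial markers passed the filter level. The 3 epithelial, 3 hepatocyte and 4 adipocyte markers were under it on all arrays. XBP1, whose transcript IRE1alpha splices, had a total signal of 265, 229 and 203 units in control arrays 1, 2 and 3 and 113, 125 and 130.4 in the dominant negative arrays. ERN1, which encodes IRE1alpha, lay around the filter level on all arrays and whether its probe set detects the transgene is not given in the sources used here, so it does not check the labels.

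Cholesterol is built from acetyl-CoA through mevalonate, isoprenoid units, squalene and lanosterol, and fatty acids are built by carboxylating acetyl-CoA and adding its carbons stepwise. Many of these enzymes are transcribed under SREBP factors, which are held in the endoplasmic reticulum membrane by SCAP and the INSIG proteins while sterols are plentiful and are cut free in the Golgi when they are not. IRE1alpha sits in the same endoplasmic reticulum membrane and senses unfolded proteins, and lipid imbalance of that membrane is also known to activate it.

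The promoter stretches of 5 genes are shown because most of the cholesterol enzymes hold the same short promoter element, because INSIG2 and DHCR7 are the regulator and the cholesterol enzyme that passed the test, and because SREBF2 holds the sterol element. They come from RefSeq on build GRCh38.p14, read on the strand of the gene from 200 to 21 bases before a listed transcript start. Their positions are chr5:43313433-43313612 for HMGCS1 (minus strand), chr4:165327469-165327648 for MSMO1 (plus strand), chr11:71448414-71448593 for DHCR7 (minus strand, the second of 2 listed starts along the gene), chr22:41832905-41833084 for SREBF2 (plus strand) and chr2:118088271-118088450 for INSIG2 (plus strand, the first of 2 listed starts). Capitals mark CCAAT, the letters of the NF-Y box, or ATTGG, the same box on the other strand, and in SREBF2 also TCACNCCAC, the letters used here for the sterol regulatory element. The INSIG2 stretch holds neither and has no capitals.
HMGCS1: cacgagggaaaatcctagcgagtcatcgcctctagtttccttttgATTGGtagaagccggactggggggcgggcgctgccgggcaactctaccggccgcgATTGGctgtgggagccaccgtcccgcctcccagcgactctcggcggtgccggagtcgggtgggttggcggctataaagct
MSMO1: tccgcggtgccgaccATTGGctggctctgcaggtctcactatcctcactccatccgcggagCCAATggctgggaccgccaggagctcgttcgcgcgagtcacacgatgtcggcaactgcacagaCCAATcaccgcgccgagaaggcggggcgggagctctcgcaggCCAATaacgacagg
DHCR7: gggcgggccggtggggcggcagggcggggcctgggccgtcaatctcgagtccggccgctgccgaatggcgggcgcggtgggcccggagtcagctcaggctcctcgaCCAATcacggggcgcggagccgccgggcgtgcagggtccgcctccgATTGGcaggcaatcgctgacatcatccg
SREBF2: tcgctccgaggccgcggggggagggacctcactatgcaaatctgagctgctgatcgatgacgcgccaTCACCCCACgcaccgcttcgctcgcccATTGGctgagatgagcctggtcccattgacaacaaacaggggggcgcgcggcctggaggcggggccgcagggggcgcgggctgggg
INSIG2: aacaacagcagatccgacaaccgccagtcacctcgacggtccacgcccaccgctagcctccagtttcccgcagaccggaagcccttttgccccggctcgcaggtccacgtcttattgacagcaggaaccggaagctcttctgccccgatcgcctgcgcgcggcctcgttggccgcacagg

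The promoter table matched 33 of the 35 genes by symbol, all but SQLE and FASN. It listed for each start the 250 bases before it and 50 after. CCAAT stood on either strand in 13 of 14 cholesterol synthesis genes, in 7 of 11 genes of the fatty acid group and in 2 of 5 SREBP regulators. It stood in 0 of 3 genes of glycerolipid assembly and efflux, and in 39.7% of the 27305 genes of the table. These 14 are not the 14 tested below: they hold TM7SF2, which was under the filter level, and lack SQLE. TCACNCCAC was found in 2 of the 33 genes, SREBF2 and ACSL1, against 1.39% of the table. Another motif, TGACGTGG, the core of an element bound by XBP1, was added after the array values were known. It was found in 1 of the 33, INSIG2, 24 bases after its second listed start, against 0.927% of all genes. These counts describe letters in a window of fixed length, and a match is not evidence of binding.

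Across the 31 tested genes, 6 rose and 3 fell in dominant negative cells, with a median log2 change of 0.05 against 0.01 over all genes tested. The 9 calls are 29.0% of the 31, beside 34.4% of all 7178 genes (17.9% higher and 16.5% lower). The parts of the pathway differed in their counts. In cholesterol synthesis 1 of 14 tested genes passed, in the fatty acid group 7 of 10, among the regulators 1 of 5, and in glycerolipid assembly and efflux 0 of 2. FADS2, counted in the fatty acid group, passed the filter on dim signals through the dominant negative group. Differences between these parts were not tested. Arrays of the groups did not overlap for 13 of the 31 genes, beside 50.2% of all genes tested. The plot of log2 changes shows this order, with the cholesterol enzymes on both sides of zero and the fatty acid genes spread further out.

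**Figure D1:**
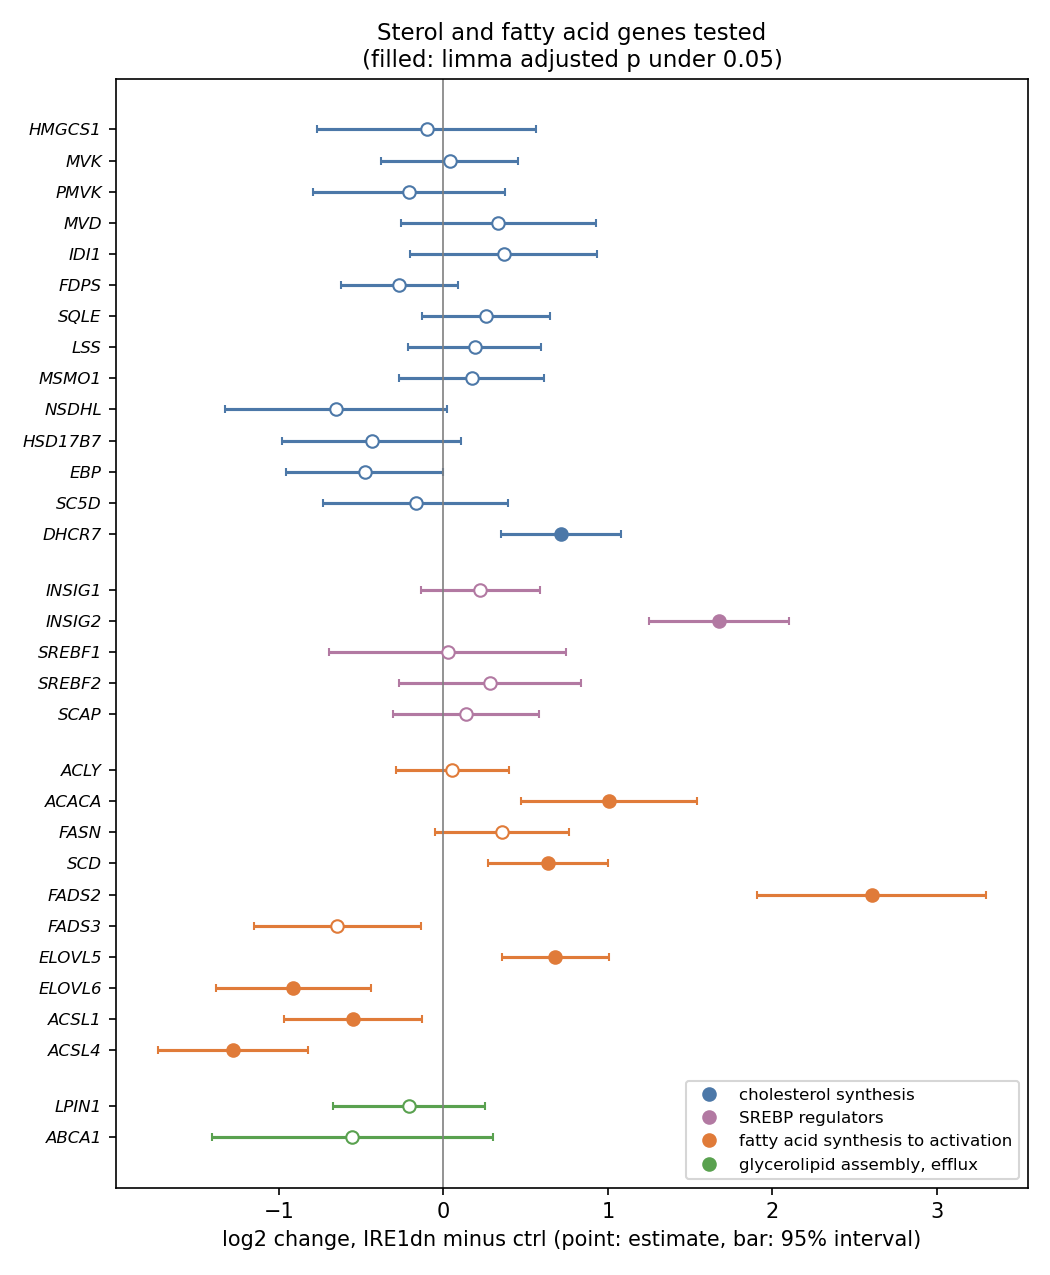
Log2 change (dominant negative minus control) of the 31 tested genes, 1 row per gene in pathway order, with limma's 95% interval as a bar and n = 3 arrays per group. Filled points passed an adjusted p of 0.05. FADS2, which passed the filter through the dominant negative group, has the highest estimate at 2.60 and ACSL4 the lowest at -1.28. Open points mark 13 of 14 cholesterol synthesis genes.

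In cholesterol synthesis the enzyme that rose was DHCR7, the reductase that completes cholesterol from 7-dehydrocholesterol. It read 171, 199.7 and 185 units in control arrays 1, 2 and 3 and 330.3, 273 and 313 in dominant negative arrays 1, 2 and 3. All dominant negative arrays lay above all controls, and the log2 change was 0.71 (SE 0.16; limma adjusted p = 0.0093). Its second probe set went the same way without passing, at 0.32 (SE 0.23). No member of the group fell past the threshold.

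The upper, mevalonate part of the pathway gave overlapping arrays throughout. HMGCS1, which condenses acetoacetyl-CoA and acetyl-CoA to HMG-CoA, read 306, 170.1 and 139 units in controls, against 239.6, 149 and 164 in dominant negative cells. Its log2 change was -0.10 (SE 0.30; limma adjusted p = 0.82), with a 95% interval of -0.77 to 0.56. In both groups array 1 was the highest for this gene. The kinases MVK and PMVK and the decarboxylase MVD turn mevalonate into isopentenyl diphosphate. Their log2 differences were 0.04 (-0.38 to 0.45), -0.21 (-0.79 to 0.37) and 0.33 (-0.26 to 0.93) with 95% intervals in brackets. The other probe sets of MVK had negative estimates, at -1.26 (SE 0.44; limma adjusted p = 0.086 over all probe sets) and -0.47 (SE 0.26). The probe set at -1.26 read 87.7, 69.8 and 83.6 units in controls, against 76.4, 19.8 and 21.8 in dominant negative cells. The sign and size for MVK thus depend on the probe set. IDI1, the isomerase of isopentenyl diphosphate, read 1071, 564 and 512 units in controls, against 797, 899 and 927 in dominant negative cells, so control array 1 alone exceeded the dominant negative arrays. Its log2 difference was 0.37 (-0.20 to 0.93), and it became 0.70 and passed (limma adjusted p = 0.0098) without control array 1. Without control array 3 it was 0.17 (limma adjusted p = 0.63). FDPS, which joins isoprenoid units to farnesyl diphosphate, had a log2 difference of -0.27 (-0.62 to 0.09).

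From squalene onward the estimates of the probe sets used divided by sign, and none passed before DHCR7. SQLE, the squalene epoxidase, read 617, 556 and 416 units in controls, against 605, 648 and 623 in dominant negative cells, a log2 difference of 0.26 (-0.13 to 0.65). LSS, which closes the ring to lanosterol, had a log2 difference of 0.19 (-0.21 to 0.59), and MSMO1, a methyl sterol oxidase, of 0.17 (-0.27 to 0.61). The other probe sets of SQLE had negative estimates, at -0.21 (SE 0.29) and -0.15 (SE 0.27). Those of LSS were at 0.04 (SE 0.33) and, with group means under the filter level, at -0.50 (SE 0.40). The positive signs of SQLE and LSS thus depend on the probe set. The enzymes that follow had negative estimates. NSDHL, a sterol dehydrogenase, had a log2 difference of -0.65 (-1.33 to 0.02), HSD17B7, a sterol ketoreductase, by -0.44 (-0.98 to 0.11), EBP, a sterol isomerase, by -0.48 (-0.96 to -0.0018), and SC5D, a desaturase, by -0.17 (-0.73 to 0.40).

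NSDHL read 298, 158 and 125 units in controls, against 139.6, 102 and 105 in dominant negative cells, and control array 3 lay inside the dominant negative range. Its log2 difference was -0.92 and passed (limma adjusted p = 0.026) without control array 3, and was -0.30 (limma adjusted p = 0.31) without control array 1. Its second probe set read 261, 177 and 139 units in controls, against 93.3, 108 and 78.4 in dominant negative cells, with no overlap, and changed by -0.99 (SE 0.24; limma adjusted p = 0.024 in a fit of all 19064 probe sets with 1 symbol). EBP read 589, 352 and 359.7 units in controls, against 309.6, 314 and 283 in dominant negative cells, which did not overlap, although the adjusted p was 0.11 in limma. HSD17B7 likewise did not overlap, at 210.5, 128 and 109 units in controls, against 107, 106 and 102 in dominant negative cells (limma adjusted p = 0.19). Without control array 1 the log2 difference was -0.24 for EBP and -0.16 for HSD17B7. The other probe sets of EBP overlapped between groups and differed in sign, at -0.50 (SE 0.26) and 0.25 (SE 0.24). TM7SF2, a sterol reductase, was under the filter level, with 9.65, 7.07 and 15.1 units in controls, against 9.32, 7.999 and 10.8 in dominant negative cells, and a log2 difference of -0.11 (SE 0.37) in a fit without the filter.

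The control arrays themselves differed for the cholesterol enzymes. In 9 of the 14 tested genes (HMGCS1, MVD, IDI1, SQLE, MSMO1, NSDHL, HSD17B7, EBP and SC5D) control array 1 was the highest control, as it was for 31.1% of all genes tested. For these genes, except EBP, control array 3 was the lowest. Averaged over the 14, control arrays 1, 2 and 3 deviated by 0.26, -0.05 and -0.22 from their mean on the log2 scale, against -0.04, 0.02 and 0.02 over all genes tested. Dominant negative arrays 1, 2 and 3 deviated by 0.10, -0.10 and -0.0003 from theirs. The median SD of a cholesterol gene on the log2 scale was 0.42 over the controls and 0.12 over the dominant negative group, beside 0.29 and 0.17 over all genes tested. The median log2 change of the 14 was -0.03, and it was 0.11 without control array 1. With this spread the intervals above allow changes of nearly 1 log2 unit for several enzymes, so the absence of a call does not show equal levels. Without control array 1 or without control array 3 the number of genes past the threshold was 2 in place of 1.

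**Figure D2:**
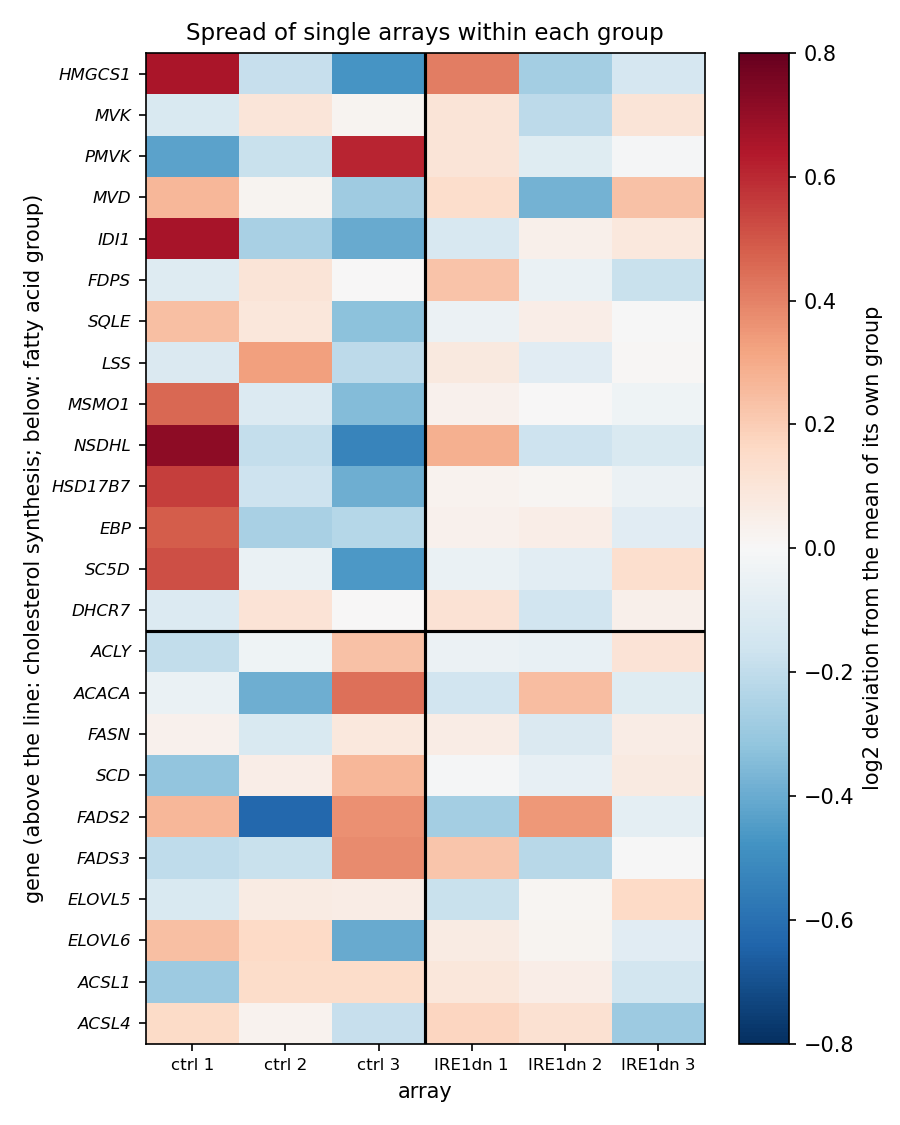
Deviation of each array from the mean of its own group on the log2 scale for the 14 tested cholesterol synthesis genes (above the horizontal line) and the 10 tested genes of the fatty acid group (below it). Columns are the 3 control and 3 dominant negative arrays. Control array 1 is red for 9 of the cholesterol genes, with a mean deviation of 0.26 over the 14, while the fatty acid genes average -0.05 there.

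Among the SREBP regulators INSIG2 rose and the other 4 did not pass. INSIG2, a membrane protein that retains the SCAP and SREBP complex in the endoplasmic reticulum, read 99.1, 78.6 and 82.5 units in controls, against 234, 310.4 and 301 in dominant negative cells. The lowest dominant negative array was well above the highest control, the means differed 3.25-fold, and the log2 change was 1.68 (SE 0.19; limma adjusted p = 0.00032). It passed under all 18 alternatives of the analysis and changed by 1.601 to 1.804 when single arrays were left out. The gene had a single probe set, so no second measurement stands beside it. The alternatives that average or select probe sets could therefore not change its estimate.

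INSIG1, its paralogue and itself a known SREBP target, read 1186, 1001 and 1045 units in controls, against 1051, 1275 and 1479 in dominant negative cells. The groups overlapped, with a log2 difference of 0.22 (SE 0.16; limma adjusted p = 0.31) and an interval of -0.14 to 0.59. Its 3 probe sets disagreed in sign, the dimmest reading 453, 456 and 375 units in controls, against 359.9, 346 and 272 in dominant negative cells (-0.40, SE 0.17).

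SREBF1, which encodes the factor best known for fatty acid genes, read 32.5, 50.6 and 88.4 units in controls, against 50.4, 59.8 and 51.3 in dominant negative cells, a log2 difference of 0.02 (-0.70 to 0.75). The control arrays spanned the whole dominant negative range, and the estimate ran from -0.31 without control array 1 to 0.39 without control array 3. SREBF2, the factor best known for sterol genes, read 43.6, 54.2 and 41.1 units in controls, against 58.4, 42.1 and 72.4 in dominant negative cells, with overlapping arrays and a log2 difference of 0.28 (-0.27 to 0.83). Its second probe set read 22.1, 38.2 and 40.7 units in controls, against 66.4, 58.4 and 61.1 in dominant negative cells, which did not overlap, with a change of 0.89 (SE 0.27; limma adjusted p = 0.052 over all probe sets). SCAP, the escort of SREBP to the Golgi, read 70.00, 94.01 and 99.1 units in controls, against 103, 90.5 and 93.9 in dominant negative cells and had a log2 difference of 0.14 (-0.31 to 0.58).

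In the fatty acid group 4 genes rose and 3 fell among 10 tested, so the calls went both ways. Of all genes tested 34.4% were called. The median log2 change was 0.20, and the median size regardless of sign was 0.66, beside 0.46 over all genes tested. Arrays of the groups did not overlap for 9 of the 10, beside 50.2% of all genes tested.

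The carbon supply and synthesis steps were mixed. ACLY, which makes cytosolic acetyl-CoA from citrate, read 818, 913 and 1099.8 units in controls, against 940.4, 932 and 1048 in dominant negative cells, with a log2 difference of 0.05 (-0.29 to 0.40). ACACA, the acetyl-CoA carboxylase that commits carbon to fatty acids, read 83.4, 65.5 and 118 units in controls, against 158, 209 and 164 in dominant negative cells. All its dominant negative arrays were above the controls and it rose by 1.01 (SE 0.24; limma adjusted p = 0.011). With dominant negative array 2 left out it no longer passed (limma adjusted p = 0.056). The call also ended, at 0.23, with the mean of its probe sets, the other of which was dim, with means of 20.1 units in controls and 13.2 in the dominant negative group. FASN, the fatty acid synthase, read 67.6, 60.5 and 69.8 units in controls, against 88.2, 78.1 and 88.2 in dominant negative cells, which did not overlap, and its change was 0.35 (SE 0.18; limma adjusted p = 0.16).

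The desaturases had estimates of both signs. SCD, which places the first double bond in stearate and palmitate, read 1055, 1365 and 1579 units in controls, against 2029.7, 1953 and 2148 in dominant negative cells. The groups did not overlap and SCD rose by 0.63 (SE 0.16; limma adjusted p = 0.015). The 3 dimmer probe sets of SCD rose further, by 1.62, 1.51 and 1.36 (SE 0.20, 0.31 and 0.34; limma adjusted p of 0.0012, 0.011 and 0.026 over all probe sets), and the mean over all its probe sets was 1.28. The brightest of these 3 read 324, 539 and 464 units in controls, against 1192, 1458 and 1377 in dominant negative cells.

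FADS2, the delta-6 desaturase of polyunsaturated fatty acids, read 15.4, 7.51 and 16.7 units in controls, against 70.4, 109 and 80.7 in dominant negative cells. Control values straddled the filter level of 13.0, so the gene passed the filter through the dominant negative group, and every dominant negative array was above 70 units. It rose by 2.60 (SE 0.31; limma adjusted p = 0.0004), and by 1.81 with a pseudocount of 16, since the size of a change from a dim signal depends on that constant. The size is therefore uncertain. In a fit with no filter the estimate was the same and the limma adjusted p was 0.0013. FADS3, a related desaturase, read 90.1, 91.5 and 136 units in controls, against 77.2, 56.2 and 65.6 in dominant negative cells, with all dominant negative arrays below the controls. Its change of -0.64 (SE 0.23; limma adjusted p = 0.051) did not pass, and it passed without control array 1 (adjusted p = 0.046) and under 4 other alternatives.

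**Figure D3:**
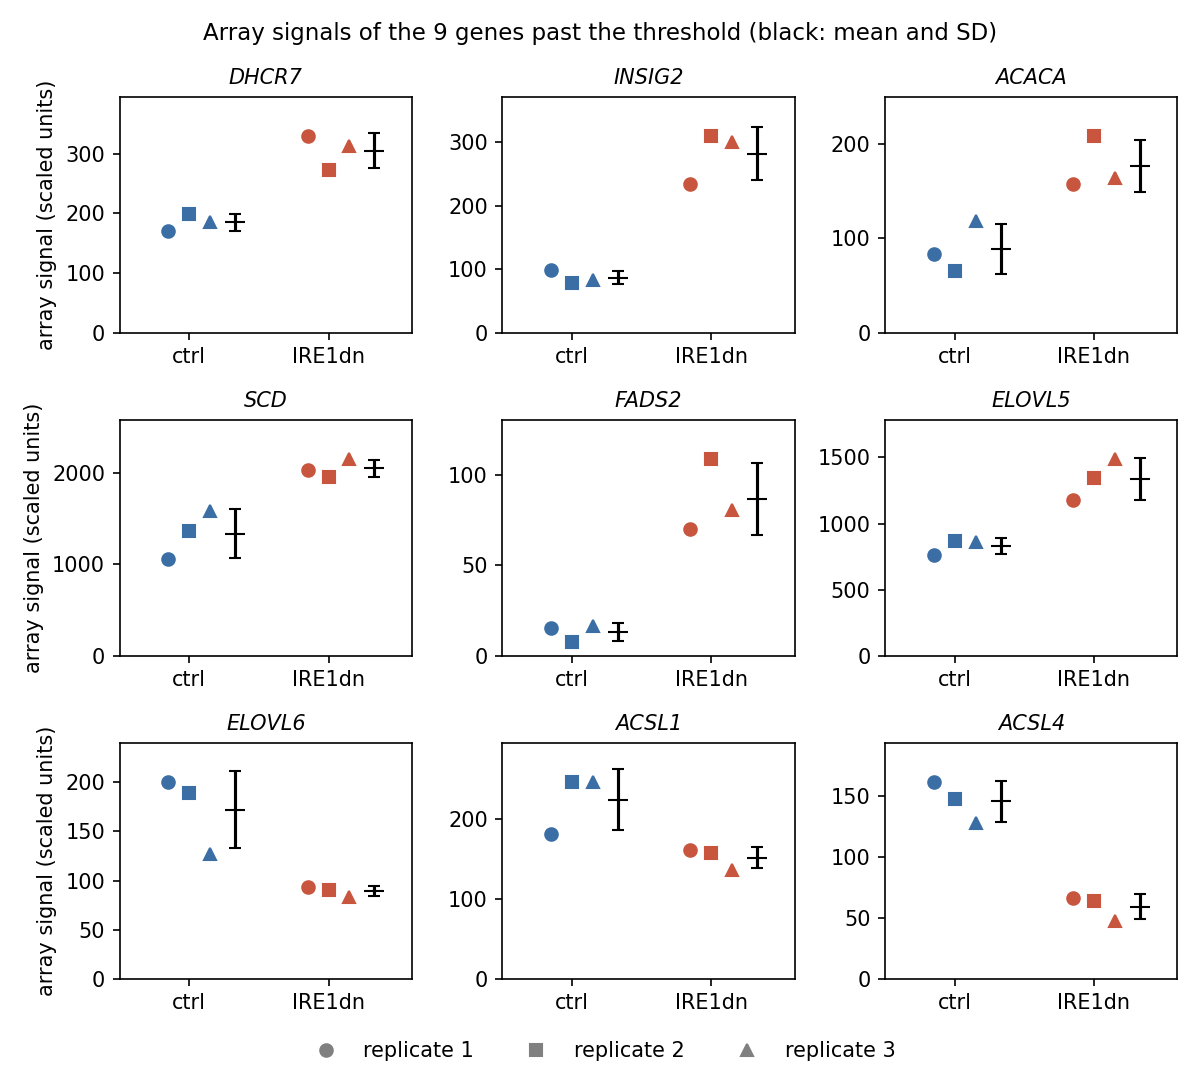
Array signal in scaled units of the 9 genes past the threshold, 1 panel per gene, with each axis starting at 0. Points are single arrays (shape gives the replicate number), and the black mark and bar are the mean and SD of 3 arrays. In every panel the 3 dominant negative arrays lie on 1 side of the 3 control arrays, from DHCR7 and INSIG2 above to ACSL1 and ACSL4 below.

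Elongases went in opposite directions. ELOVL5, which lengthens polyunsaturated chains, read 761, 869 and 863 units in controls, against 1177, 1346 and 1489 in dominant negative cells and rose by 0.68 (SE 0.15; limma adjusted p = 0.007). Its other probe sets were under the filter level, and the mean of all of them (0.38) did not pass. ELOVL6, which lengthens saturated and monounsaturated chains of 16 carbons, read 200.4, 189 and 127 units in controls, against 93.2, 90.4 and 83.3 in dominant negative cells. Dominant negative values were tightly grouped below all controls, and the log2 change was -0.91 (SE 0.21; limma adjusted p = 0.0095). The second probe set of ELOVL6 also fell, by 1.21 (SE 0.25; limma adjusted p = 0.011 over all probe sets). ELOVL2 was under the filter level in both groups (5.13, 3.53 and 2.57 units in controls, against 3.18, 1.22 and 5.34 in dominant negative cells).

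Of the acyl-CoA synthetases, which activate fatty acids for use, both tested members fell. ACSL4, which prefers arachidonate and related polyunsaturated chains, read 161, 148 and 127 units in controls, against 65.98, 63.9 and 47.4 in dominant negative cells. Control signals were 2.46 times the dominant negative ones on average, and the log2 change was -1.28 (SE 0.20; limma adjusted p = 0.0017). ACSL1, the broad long-chain enzyme, read 181, 246 and 247 units in controls, against 162, 157 and 137 in dominant negative cells, a log2 difference of -0.55 (SE 0.19; limma adjusted p = 0.046). That call is marginal. It was lost when any of control arrays 2 and 3 or the dominant negative arrays was left out (limma adjusted p of 0.087 to 0.17) and under 4 further alternatives, and its second probe set read -0.11 (SE 0.24). ACSL5 was under the filter level (15.5, 7.36 and 12.5 units in controls, against 10.5, 14.5 and 9.30 in dominant negative cells).

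The remaining genes lie downstream of synthesis. LPIN1, a phosphatidate phosphatase of glycerolipid assembly, read 182, 203 and 278 units in controls, against 163, 188 and 216 in dominant negative cells and had a log2 difference of -0.21 (-0.67 to 0.25). AGPAT2, an acyltransferase that makes phosphatidate, was under or near the filter level (14.96, 12.9 and 14.3 units in controls, against 11.6, 10.6 and 1.76 in dominant negative cells) and had a log2 difference of -0.92 (SE 0.52) in a fit without the filter. Dominant negative array 3 was far below the other arrays for this gene.

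ABCA1, the pump that exports cholesterol and a known target of the sterol-sensing receptor LXR, read 109, 403 and 203 units in controls, against 134, 141 and 147 in dominant negative cells. The dominant negative arrays were close together, inside the wide range of the controls, and the change was -0.55 (SE 0.38; limma adjusted p = 0.29). It was -1.02 (adjusted p = 0.025) without control array 1 and -0.08 without control array 2. The second probe set of ABCA1, which had the higher mean on the linear scale and the lower on the log2 scale, separated the groups, at 181, 506 and 234 units in controls, against 102, 86.2 and 81.03 in dominant negative cells, with a change of -1.62 (SE 0.33; limma adjusted p = 0.011 over all probe sets). The remaining probe set was under the filter level in both groups, at -1.16 (SE 0.34). The probe sets of ABCA1 thus gave different calls, and which of them reflects the transcript was not tested.

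**Figure D4:**
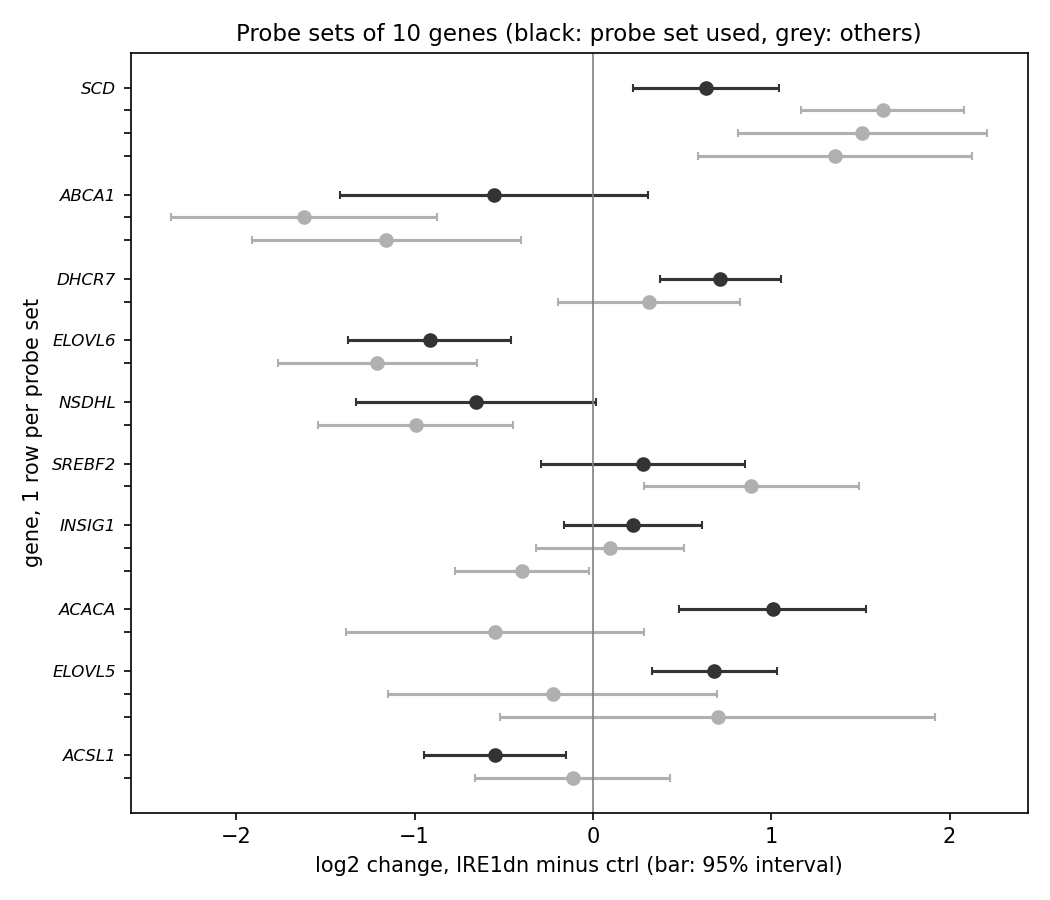
Log2 change (dominant negative minus control) with limma's 95% interval for every probe set of 10 genes, fitted over all 19064 probe sets with a single symbol. Black points are the probe sets used, those with the highest mean log2 signal of each gene, and grey points the others. The 4 SCD and 2 ELOVL6 probe sets lie on 1 side of zero, whereas those of INSIG1, ACACA and ELOVL5 lie on both.

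Related genes outside the list were counted in 6 further lists. Of all genes tested, 17.9% were called higher and 16.5% lower. Among cholesterol handling and SREBP processing genes 5 rose and 1 fell of 19 tested, with a median of 0.08. MBTPS1, the Golgi protease that makes the first cut in SREBP, rose from 80.4 ± 16.1 to 162 ± 12.8 units (SD, n = 3 each; log2 change 1.01, limma adjusted p = 0.0045). RXRA, the partner of LXR, rose by 1.78 and the oxysterol-binding OSBPL1A by 1.03. NR1H3, which encodes LXRalpha, fell by 1.34, from 47.6 ± 20.5 to 16.8 ± 1.86 units. A link between NR1H3 and ABCA1 was not tested.

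In the isoprenoid branches, which use intermediates of the mevalonate pathway, 1 gene rose and 4 fell of 14 tested. ICMT, which methylates prenylated proteins, rose by 1.21. RABGGTB, a subunit of the Rab prenyl transferase, fell by 0.74, DHDDS, of dolichol synthesis, fell by 0.60 and PDSS2, of ubiquinone synthesis, fell by 0.53.

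Among fatty acid supply and very long chain enzymes 2 rose and 2 fell of 14 tested. ACAT2, the cytosolic thiolase that feeds HMGCS1, read 21.5, 30.7 and 156 units in controls, against 291, 277 and 297 in dominant negative cells, so control array 3 stood above the other two. It rose by 2.56 (SE 0.57; limma adjusted p = 0.0082). The dehydratase HACD3 rose by 0.70, the mitochondrial thiolase ACAT1 fell by 0.52 and the acyl-CoA binding protein DBI fell by 0.49. In triglyceride and phospholipid assembly 2 rose (AGPAT1 and AGPAT5, acyltransferases, by 0.68 and 0.62) and 2 fell of 20 tested. PLIN3, a lipid droplet coat protein, changed from 576 ± 25.1 to 279.6 ± 18.7 units (-1.04, limma adjusted p = 0.001), and CEPT1, of phospholipid synthesis, by -0.75.

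Fatty acid oxidation, the opposing pathway, had 1 gene up, 6 down and 12 not called of 19 tested, with a median of -0.41. The share called was 36.8%, near the 34.4% of all genes tested. Genes of the carnitine shuttle, which carries acyl chains into mitochondria, were among those that fell. CPT1A, its outer membrane transferase, read 114, 79.05 and 107 units in controls, against 15.7, 30.4 and 28.7 in dominant negative cells and fell by 1.97 on the log2 scale (SE 0.28; limma adjusted p = 0.001). The carnitine carrier SLC25A20 fell by 1.26, the inner transferase CPT2 fell by 1.09 and the isomerase ECI1 fell by 1.01.

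Of 17 tested genes of AMPK and lipogenic control, 2 rose and 6 fell. AMPK is the kinase that inhibits acetyl-CoA carboxylase, and its subunit PRKAG2 fell from 216 ± 60.3 to 57.2 ± 13.6 units (-1.87, limma adjusted p = 0.00077). Of its other subunits, PRKAG1 fell by 0.83. PRKAA1 (-0.42), PRKAB1 (0.11) and PRKAB2 (-0.01) were not called, and PRKAA2 did not pass the filter. The activity of AMPK was not measured. PPARG, a lipogenic receptor, read 41.3, 36.97 and 15.3 units in controls, against 10.9, 5.82 and 6.17 in dominant negative cells. It fell (limma adjusted p = 0.0091), but it passed the filter through the controls alone, so no size is given. NR1H3, listed here too, fell as above. NFYA, a subunit of the factor that binds the CCAAT box, rose by 1.26, from 30.3 ± 4.41 to 75.6 ± 13.7 units. LPIN1 is counted in this list as well. With 34.4% of all tested genes called, the shares of these lists, from 4 of 20 to 8 of 17, lay on both sides of the background.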

How the data were processed

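RNA from 6 U87 samples was measured on 1 Affymetrix array each. The authors deposited linear signal intensities for 22277 probe sets, and the submitters' processing notes name GCOS 1.2. How probes were summarised, how background was handled and which probe sets were detected was not given in the sources used here. The deposited intensities had a mean of 100.0 on each array after trimming 2% at each end. A change shared by all transcripts would therefore not be seen. The platform annotation gave 19064 probe sets a single symbol, 1043 several and 2108 none, besides 62 controls, and 19052 of the 19064 were matched to RefSeq by gene identifier.

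The probe set with the highest mean of log2(signal + 1.75) was used for each gene, where 1.75 is the 20th percentile of all values. Genes with a mean log2 signal above the 40th percentile, a signal of 13.0, were tested two-sided with lmFit and eBayes (trend by intensity) from limma 3.58.1, under R 4.3.3. Benjamini-Hochberg adjustment ran over 7178 genes, and an adjusted p under 0.05 was called. Intervals are 95% limma intervals, not adjusted. Other probe sets of a gene were planned as a description, and their p-values come from a limma fit of all 19064 probe sets with 1 symbol, with no filter, added later. The script was tested on simulated data. The number of arrays limits the precision.

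The genes and lists were chosen with earlier results of these data known. All genes of the list are named, those past the threshold and the regulators with their array values, and up to 4 changed genes of each further list. The other AMPK subunits were added to these. No comparison of protein sequences was made here.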

Additional observations from a re-analysis of the deposited data

How the results depend on the processing

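Of 553 values of single genes under 18 alternatives, 501 kept direction and side of the threshold, 12 lost a call, 13 gained one and 27 changed sign, all for genes that had not passed. DHCR7, INSIG2, SCD, ELOVL6 and ACSL4 passed under all 18, and FADS2 under the 17 in which it was tested. Not every alternative could change these estimates. INSIG2, ACSL4 and FADS2 had 1 probe set each, so averaging probe sets left them as they were. With the _x_at and _s_at probe sets left out, INSIG2, DHCR7, SCD, ACSL4 and FADS2 kept the same probe set, having no other kind to turn to. ELOVL5 passed under 17 of 18, ACACA under 16 and ACSL1 under 9. With the mean of the probe sets the sign turned for HMGCS1 (0.045), MVK (-0.57), SQLE (-0.034), LSS (-0.090), INSIG1 (-0.025) and ACLY (-0.074), 2 cholesterol synthesis and 4 fatty acid genes were called, and the median of the fatty acid group was -0.0094. Without the _x_at and _s_at probe sets HMGCS1 was 0.19, 2 cholesterol genes were called, 5 genes of the whole list were lower in place of 3, and the fatty acid median was 0.054, as it was with a 60th percentile filter (0.054). With no filter that median was 0.022, since 2 dim genes enter. Quantile normalization turned MVK (-0.014) and SREBF1 (-0.036), equal medians turned MVK (-0.030), SREBF1 (-0.043) and ACLY (-0.014), and array weights turned MVK (-0.10), called 5 genes lower and gave a regulator median of 0.070. The causes were not tested beyond what each alternative changes.

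With single arrays left out, the called genes numbered 1441 (without dominant negative array 2) to 2663 over all genes (1501 without dominant negative array 3), 5 to 7 members higher, 2 to 5 lower (2 without control array 2, 5 without control array 1), 1 to 2 in cholesterol synthesis and 5 to 8 in the fatty acid group. The cholesterol median ran from -0.08 to 0.11. Changes ran from -0.34 to 0.23 for HMGCS1, -0.024 to 0.14 for MVK, -0.42 to 0.095 for PMVK, -0.0011 to 0.40 for MSMO1, -0.40 to 0.090 for SC5D, -0.31 to 0.39 for SREBF1, -0.013 to 0.23 for SCAP and -0.043 to 0.17 for ACLY. Nothing in the labels pairs the arrays by replicate number. Deviations of same-numbered arrays correlated at -0.10, 0.061 and 0.025, which gives no sign of pairing but cannot exclude it with 3 arrays per group. With the replicate number as a block the ACSL1 call ended (-0.55, limma adjusted p = 0.072) and no other call of the list changed. Dim signals, such as those of FADS2 in controls, limit the size of a change.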
